A study of Homo sapiens with 6 samples.

Results

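The tight junction genes described here were 5 claudins (CLDN1, CLDN3, CLDN4, CLDN7 and CLDN12), occludin (OCLN), junctional adhesion molecule A (F11R), zonula occludens 1 (TJP1) and cingulin (CGN). They were taken from the deposited expression matrix by gene symbol, and each of the 9 symbols matched 1 gene among 58884. All 9 passed the filter on low values, a mean of at least 10 normalized counts, as did 16701 genes in all. KYSE450 is a human esophageal squamous cell carcinoma (ESCC) line with wild-type NRF2, and KEAP1null-KYSE450 is 1 monoclonal line derived from it by CRISPR-Cas9 editing of KEAP1. Untreated cells of each line, grown in the same serum-supplemented medium, gave 3 RNA sequencing libraries, numbered 1 to 3 here in the order of the columns, which carry no replicate numbers. The comparison addressed how expression differed once KEAP1, which marks NRF2 for degradation, was lost. The normalized counts summed to between 54829313 and 57380170 per library. Nothing in the sources says that the libraries of a line came from separate cultures, so the p-values measure only the spread between these libraries, which may be technical, and the loss of KEAP1 and other differences between a clone and its parent cannot be told apart.

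Tight junctions seal the space between neighbouring epithelial cells near their apical side. Claudins are small proteins that span the membrane several times, form the strands of the junction and set which ions pass between the cells. Occludin and junctional adhesion molecule A are membrane proteins of the same junction, and zonula occludens 1 and cingulin lie beneath the membrane, where they link the strands to the actin cytoskeleton. In stratified squamous epithelium such as that of the esophagus, claudins are found in most living layers, while sealed junctions form in the upper layers.

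The labels were checked first against the edited gene and 2 well known NRF2 target genes. KEAP1 measured 5760.4, 5226 and 5146 normalized counts in KYSE450 and 5737, 4906 and 5317 in KEAP1null-KYSE450. The lines overlapped, and the difference did not pass the test (log2 fold change -0.017, SE 0.096, limma adjusted p = 0.900, 95% interval -0.22 to 0.19; its sign was positive with quantile normalization, 0.14, with every library scaled to the same total, 0.016, without KYSE450 library 1, 0.034, and without KEAP1null-KYSE450 library 2, 0.040). An edit that disrupts the reading frame need not lower the transcript, so the level of KEAP1 does not check the label. NQO1, a quinone reductase, measured 15681, 17099.9 and 17093 in KYSE450 and 104116, 108806 and 110351 in KEAP1null-KYSE450, and it rose 6.48-fold (log2 fold change 2.70, SE 0.097, limma adjusted p = 3.94e-10). GCLM, a subunit of the enzyme that starts glutathione synthesis, measured 4104, 3765 and 3673 in KYSE450 and 40992, 37572 and 40083 in KEAP1null-KYSE450. All libraries of the edited line were above all of the parent for both genes, and GCLM rose 10.3-fold (log2 fold change 3.36, SE 0.091, limma adjusted p = 2.13e-11).

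The cell type was checked next, and markers of squamous epithelium were present in every library. All 8 squamous markers were tested, and 2 rose (KRT5 and DSG3) and 6 fell (KRT6A, KRT14, TP63, SOX2, PKP1 and PERP). DSG3 passed narrowly (log2 fold change 0.41, limma adjusted p = 0.0446), and its lines overlapped. The 8 markers summed to 439815, 365975 and 325018 in KYSE450 and 717095, 593209 and 574690.0 in KEAP1null-KYSE450, and KRT5, a keratin of basal squamous cells, was the most abundant. Without KRT5 the other 7 summed to 189456, 166411 and 150641 in KYSE450 and 68418, 56690.0 and 55142 in KEAP1null-KYSE450, lower in every library of the edited line. KRT14, the usual partner of KRT5, measured 2699, 2368 and 2136 in KYSE450 and 30.5, 41.8 and 31.3 in KEAP1null-KYSE450. Of 7 markers of simple or glandular epithelium, 5 were tested, 2 rose (KRT8 and KRT18) and 1 fell (MUC1); their summed level was 172204, 150246 and 158519 in KYSE450 and 297602, 257971 and 269743 in KEAP1null-KYSE450, KRT8 was the most abundant and CDX2 was at 0. The 6 fibroblast markers summed to 853, 677 and 622 in KYSE450 and 349, 409 and 436 in KEAP1null-KYSE450, nearly all of it COL1A1, which fell, while COL1A2 and DCN were at or near 0. The 5 endothelial markers summed to 59.9, 74.8 and 65.3 in KYSE450 and 48.0, 60.1 and 70.6 in KEAP1null-KYSE450, led by VWF, with PECAM1 and CLDN5 at 0. Of the 2 tested, VWF did not pass, and CDH5, which passed the filter on low values only through KYSE450, had to differ. The 5 leukocyte markers summed to 3.21, 16.2 and 1.86 in KYSE450 and 2.77, 5.10 and 4.04 in KEAP1null-KYSE450, with CD14 the highest over the 6 libraries and PTPRC the highest in KYSE450. PTPRC reached 8.09 in KYSE450 library 2, where CD14 was 7.08, and CD3E was at or near 0. The simple epithelial sum was higher, the fibroblast sum lower and the squamous sum higher with KRT5 and lower without it in every KEAP1null-KYSE450 library, and their part in the results on tight junction genes was not tested. In bulk RNA, fewer cells of a kind and less transcript per cell cannot be told apart.

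Of the 9 tight junction genes, 5 fell in KEAP1null-KYSE450 (CLDN7, CGN, F11R, OCLN and TJP1), 1 rose (CLDN4) and 3 did not pass the test (CLDN1, CLDN3 and CLDN12). Differences were tested with limma on log2 of the normalized count plus 1, with adjusted p under 0.05 as the threshold. A log2 fold change is on that scale, while a value written as N-fold is the ratio of the mean normalized counts of the lines. Among all 16701 genes tested, 25.5% fell and 24.3% rose, so many genes differed between the lines. A second threshold was a log2 fold change of 1 or more either way. CLDN7, CGN and F11R passed both thresholds as lower, as did 5.98% of all genes tested. No tight junction gene had a log2 fold change of 1 or more, while 12.2% of all genes tested passed both thresholds as higher. The libraries of the lines did not overlap for 5 genes that were lower in KEAP1null-KYSE450 and 3 that were higher, where 29.3% and 28.4% of all genes tested were separated in these directions. The median log2 fold change of the 9 genes was -0.75, beside 0.00412 over all genes tested. Past both thresholds, 2045 genes were higher and 999 lower, so that 67.2% were higher; with quantile normalization the counts were 1388 and 1289, and 51.8% were higher. An exact permutation test of 3 libraries against 3 cannot give a p under 0.10, and none was run.

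**Figure D1:**
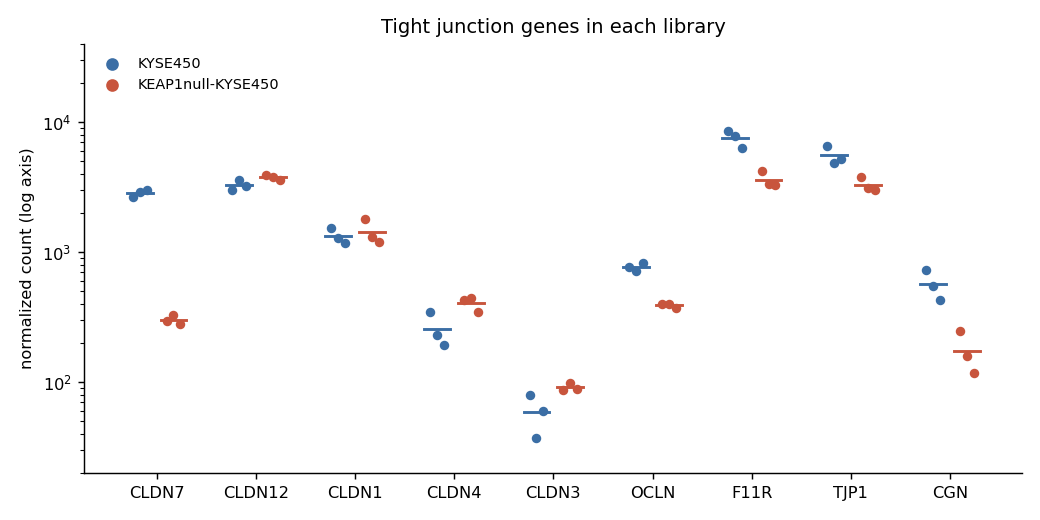
Normalized count (vertical axis, log scale) of each tight junction gene in each library; each point is 1 library, each bar the mean of 3, blue for KYSE450 and red for KEAP1null-KYSE450. The points of CLDN7 lie about 1 log10 unit apart between the lines, those of CLDN1 overlap, and those of OCLN, F11R, TJP1 and CGN are all lower in KEAP1null-KYSE450.

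**Figure D2:**
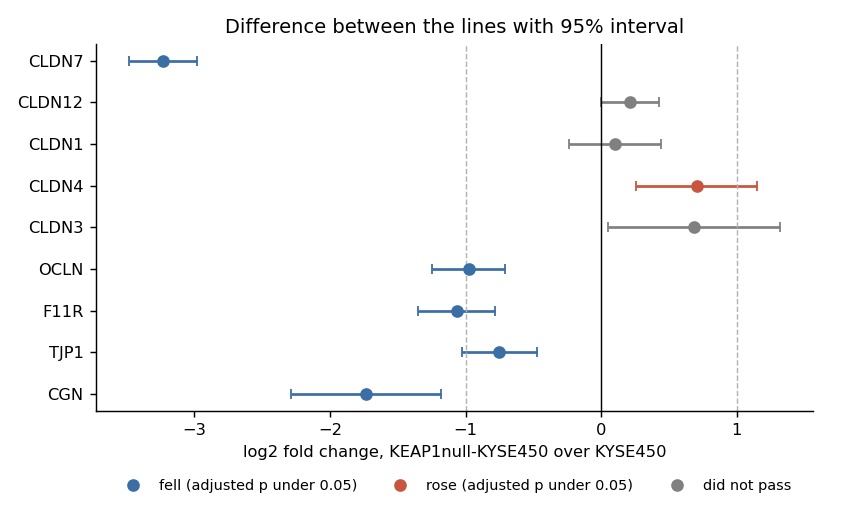
Log2 fold change of KEAP1null-KYSE450 over KYSE450 (horizontal axis) with its 95% interval from the limma fit, 3 libraries a line; blue genes fell, the red gene rose and grey genes did not pass, and dashed lines mark a log2 fold change of 1 either way. CLDN7 stands at -3.23, and the intervals of OCLN, F11R and TJP1 cross the dashed line at -1.

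CLDN7 (ENSG00000181885, chr17:7259903-7263983 on the minus strand of hg38), a claudin of many epithelia, showed the largest difference among the 9 genes. It measured 2639.6, 2898 and 3012 normalized counts in the KYSE450 libraries and 295, 330.3 and 281 in those of KEAP1null-KYSE450. All 3 libraries of the edited line were far below all 3 of the parent, and the spread within each line was small (mean 2850.0 ± 191 and 302 ± 25.2, SD, n = 3). The mean was 9.43-fold lower (log2 fold change -3.23, SE 0.12, limma adjusted p = 3.94e-10, 95% interval -3.48 to -2.98).

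CLDN4 (ENSG00000189143, chr7:73799542-73832690, plus strand), known with CLDN3 as a receptor of Clostridium perfringens enterotoxin, moved the other way. It measured 345, 229 and 194 in KYSE450 and 428, 445 and 349 in KEAP1null-KYSE450. The highest KYSE450 library was just under the lowest library of the edited line, and the mean rose 1.59-fold (log2 fold change 0.70, SE 0.21, limma adjusted p = 0.0129, 95% interval 0.26 to 1.15). This call was lost with DESeq2 on recovered reads (adjusted p = 0.0545), with limma without a trend (adjusted p = 0.0555) and without library 2 of KEAP1null-KYSE450 (limma adjusted p = 0.0561; adjusted p 5.19e-04 to 0.0561 over all alternatives). CLDN3 (ENSG00000165215, chr7:73768997-73770270, minus strand), which lies next to CLDN4 on chromosome 7, measured 79.1, 37.4 and 59.7 in KYSE450 and 86.7, 97.9 and 88.8 in KEAP1null-KYSE450. The lines did not overlap, but the difference did not pass the test (log2 fold change 0.69, SE 0.29, limma adjusted p = 0.0681, 95% interval 0.052 to 1.32). Without KYSE450 library 1, the highest of its line, it passed (log2 fold change 0.93, limma adjusted p = 0.0199). The log2 fold change of CLDN3 was smaller, and did not pass, under other alternatives (adjusted p 0.0199 to 0.501 over all alternatives). These values were 0.28 with quantile normalization, 0.42 with DESeq2, 0.45 with edgeR and 0.40 without KYSE450 library 2.

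CLDN12 (ENSG00000157224, chr7:90383721-90513402, plus strand), a claudin that lacks the PDZ-binding end of most claudins, measured 3020.3, 3586 and 3243 in KYSE450 and 3959, 3818 and 3607 in KEAP1null-KYSE450. Its libraries were separated by a narrow gap, and the difference did not pass (log2 fold change 0.21, SE 0.097, limma adjusted p = 0.0893, 95% interval -4.7e-05 to 0.42); it passed with quantile normalization (log2 fold change 0.36, limma adjusted p = 0.0105; adjusted p 0.0105 to 0.228 over all alternatives). CLDN1 (ENSG00000163347, chr3:190305707-190322446, minus strand), which is needed for the barrier of the epidermis, measured 1543, 1276 and 1167 in KYSE450 and 1811, 1311 and 1196 in KEAP1null-KYSE450. The lines overlapped, and the difference was 0.10 on the log2 scale (95% interval -0.24 to 0.44, limma adjusted p = 0.611); without library 1 of KEAP1null-KYSE450 its sign turned, to -0.075. Of the 5 claudins, then, 1 fell, 1 rose and 3 did not pass.

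The 2 other membrane proteins of the junction both fell. OCLN (ENSG00000197822, chr5:69492292-69558104, plus strand), which steadies the strands and takes part in their remodelling, measured 767, 718 and 831 in KYSE450 and 401, 402 and 369 in KEAP1null-KYSE450. Every library of the edited line was below every library of the parent, with a 1.97-fold lower mean (log2 fold change -0.98, SE 0.13, limma adjusted p = 4.43e-05, 95% interval -1.25 to -0.71). F11R (ENSG00000158769, chr1:160995211-161021343, minus strand), an adhesion protein of the immunoglobulin superfamily, measured 8615, 7883 and 6278 in KYSE450 and 4208, 3373 and 3267 in KEAP1null-KYSE450. No library of the edited line reached the lowest of the parent, and the mean was 2.10-fold lower (log2 fold change -1.07, SE 0.13, limma adjusted p = 3.15e-05, 95% interval -1.35 to -0.78). Both genes lay close to a log2 fold change of -1. F11R was between -1.20 and -0.90 and OCLN between -1.04 and -0.92 over the alternatives. F11R no longer passed both thresholds without KYSE450 library 1 (-0.969), without KEAP1null-KYSE450 library 3 (-0.998) and with edgeR, DESeq2 or quantile normalization, and OCLN came to pass both without KYSE450 library 2 (-1.030) and with quantile normalization.

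Both plaque proteins fell as well. TJP1 (ENSG00000104067, chr15:29699367-29968915, minus strand), a scaffold whose PDZ domains bind claudins, measured 6575, 4873 and 5252 in KYSE450 and 3808, 3100.1 and 2993 in KEAP1null-KYSE450, and its mean was 1.69-fold lower (log2 fold change -0.75, SE 0.13, limma adjusted p = 3.97e-04, 95% interval -1.03 to -0.47). The lines did not overlap, and the highest library of each line was well above the others. CGN (ENSG00000143375, chr1:151510510-151538692, plus strand), which binds TJP1 and guanine nucleotide exchange factors of RhoA, measured 726, 547 and 429.8 in KYSE450 and 245, 160.0 and 117 in KEAP1null-KYSE450. On the log2 scale its SE was the largest of the genes that fell (mean 568 ± 149 and 174 ± 65.4, SD, n = 3), and the lines were still separated, with a 3.26-fold lower mean (log2 fold change -1.73, SE 0.25, limma adjusted p = 1.32e-04, 95% interval -2.28 to -1.18). Library 1 held the highest value of its line for 6 of the 9 genes in KYSE450 and for 5 in KEAP1null-KYSE450. Without library 1 of both lines, an alternative chosen after seeing the data, CLDN3 also passed the test (log2 fold change 0.96, limma adjusted p = 0.0271; adjusted p 0.0199 to 0.501 over all alternatives), OCLN also passed both thresholds (-1.002), and the other 7 genes were called as before.

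Levels of different genes were compared per kilobase of annotated exon. In KYSE450, F11R was the highest at 1500.2 ± 236 normalized counts per kilobase (SD, n = 3), followed by CLDN7 at 1144 ± 76.6. TJP1 (492 ± 79.0) and CLDN12 (489 ± 42.5) came next and did not differ beyond the range of their libraries, and CLDN1 stood below them at 366 ± 53.3. CGN (85.8 ± 22.6), OCLN (68.5 ± 5.03), CLDN4 (54.5 ± 16.9) and CLDN3 (46.1 ± 16.4) formed a low group in which each neighbour overlapped the next. In KEAP1null-KYSE450, F11R was still the highest at 714 ± 102 per kilobase, with CLDN12 second at 566 ± 26.4. CLDN1 (397 ± 90.1) and TJP1 (292 ± 39.1) overlapped, and CLDN7 came after them at 121 ± 10.1. CLDN4 (86.7 ± 10.9) and CLDN3 (71.5 ± 4.65) overlapped each other and were above OCLN (34.7 ± 1.66) and CGN (26.3 ± 9.88), which also overlapped. With the length of the longest transcript in place of all exons, CLDN12 stood above F11R in KEAP1null-KYSE450 (1064 against 758). In KYSE450 that length put CLDN12 above TJP1 (921 against 700.2) and OCLN above CGN (119.9 against 111).

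The make-up of the claudin family differed between the lines. CLDN7 made up 48.6% ± 2.89 of the summed claudin level per kilobase in KYSE450 (SD, n = 3) and 6.70% ± 0.819 in KEAP1null-KYSE450. In the single KYSE450 libraries its share was 45.5%, 49.0% and 51.3%. CLDN12 held the largest share in KEAP1null-KYSE450, 31.2% ± 1.95, against 20.8% ± 1.61 in KYSE450. CLDN1 held 15.6% ± 2.41 in KYSE450 and 21.6% ± 2.52 in KEAP1null-KYSE450, and CLDN11 held 4.01% ± 0.518 and 19.0% ± 2.28. The summed level was 2352 ± 23.6 per kilobase in KYSE450 and 1824 ± 198 in KEAP1null-KYSE450. Without CLDN7 the sum was lower in KYSE450 than in the edited line, 1208 ± 59.0 against 1703 ± 198. Shares add to a whole, so a lower share of CLDN7 raises the others; with lengths of the longest transcripts, CLDN7 held 45.7% ± 2.39 and 5.98% ± 0.72.

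**Figure D3:**
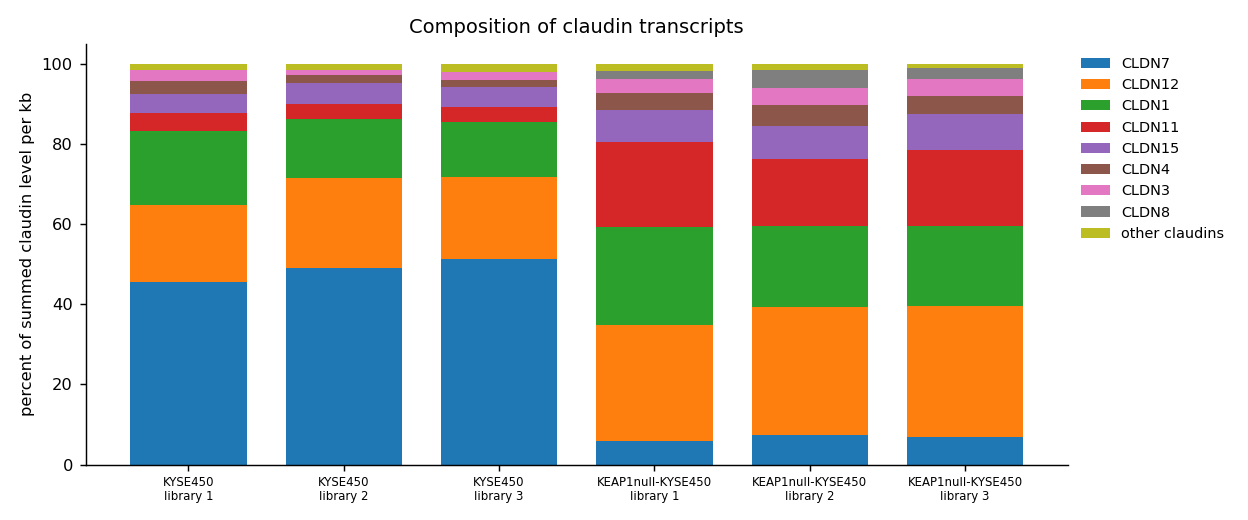
Share of each claudin in the summed claudin level per kilobase of exon (vertical axis, percent), 1 stacked bar per library. CLDN7 (blue, at the base) takes 45.5% to 51.3% of each KYSE450 bar and 5.81% to 7.43% of each KEAP1null-KYSE450 bar, and CLDN11 (red) is wider in the edited line.

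Of the other 19 claudin genes, 6 passed the filter on low values, and 10 were at 0 in all libraries. CLDN8 and CLDN16 passed this filter only through KEAP1null-KYSE450 and CLDN22 only through KYSE450, so they had to differ, and the counts that follow support no statement about the claudin family. CLDN8, CLDN11, CLDN15 and CLDN16 rose, CLDN22 fell and CLDN23 did not pass. CLDN11, a claudin of myelin and of the Sertoli cell barrier, measured 459, 363 and 400.0 in KYSE450 and 1871, 1287 and 1357 in KEAP1null-KYSE450, and it rose 3.70-fold (log2 fold change 1.87, SE 0.15, limma adjusted p = 1.09e-06). CLDN8, a claudin of the distal nephron, was at the limit of detection in KYSE450, with 1 read in the 2 libraries whose reads could be recovered, and at 89.5, 163 and 91.8 normalized counts in KEAP1null-KYSE450. Against 257 reads in 2 libraries of the edited line this is a ratio, scaled for depth, of 249.9 (95% exact interval 44.5 to 9908, for counting error only), and the gene rose in the fit (limma adjusted p = 1.60e-06). CLDN15, the most abundant of the 19 per kilobase in KYSE450, measured 324, 365 and 328 in KYSE450 and 467, 422 and 427 in KEAP1null-KYSE450 (log2 fold change 0.37, SE 0.14, limma adjusted p = 0.0383); it lost its call under 11 of 16 alternatives, among them leaving out any 1 of the 6 libraries (log2 fold change 0.33 to 0.42, limma adjusted p 0.0505 to 0.103, and adjusted p 0.0275 to 0.142 over all alternatives). CLDN16 rose from at or under the floor of 3 reads in KYSE450 to 31.4, 7.14 and 26.2, and CLDN22 fell from 19.3, 16.2 and 33.6 to 3.69, 15.3 and 2.02; both are low and, like CLDN23, were chosen after their values were seen. The median log2 fold change depended on the filter: it was 1.1202 over the 6 genes, with CLDN8 and CLDN16 as fitted or at the bound that the floor gives, and -0.049 without the filter.

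Among 12 further membrane proteins of the junction, 10 were tested, 4 fell (CRB3, MARVELD3, LSR and MARVELD2), 1 rose and 5 did not pass (median log2 fold change -0.068, and -0.21 without the filter on low values). For comparison with this list and those that follow, 25.5% of all genes tested fell and 24.3% rose. CRB3, an apical polarity protein, measured 862, 805 and 810.2 in KYSE450 and 349, 327 and 395 in KEAP1null-KYSE450 and fell 2.31-fold (log2 fold change -1.21, SE 0.13, limma adjusted p = 9.27e-06). MARVELD3, a relative of occludin, went from 2944, 2696 and 2626 to 1557, 1189.7 and 1268 and fell 2.06-fold (log2 fold change -1.05, SE 0.12, limma adjusted p = 1.38e-05). LSR, also called angulin 1, a protein of the corners between several cells and the most abundant of the list per kilobase, fell 1.78-fold (log2 fold change -0.84, SE 0.13, limma adjusted p = 2.58e-04). The gene that rose was ILDR2, from 1.07, 7.08 and 2.80 to 16.6, 31.6 and 18.2, which passed the filter only through KEAP1null-KYSE450; it and MARVELD2 were chosen after their values were seen, as were JAM2, JAM3, CXADR, CLMP and ILDR1, which did not pass.

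Of 27 plaque and polarity proteins, all tested, 10 fell, 3 rose and 14 did not pass (median log2 fold change -0.18). The genes that rose were MAGI2, PRKCZ and AMOTL1, the last 2 chosen after their values were seen. Those that fell were ARHGEF2, AMOTL2, RAB13, MAGI3, TJAP1, ARHGEF11, MPDZ, PARD3, SYMPK and LIN7C, all chosen after their values were seen. ARHGEF2 went from 1066, 737 and 776 to 477, 392 and 420, just short of the second threshold (log2 fold change -0.98, SE 0.16, limma adjusted p = 2.33e-04). MAGI2, a scaffold, rose from 94.1, 94.0 and 101 to 204, 223 and 189 (log2 fold change 1.08, SE 0.19, limma adjusted p = 4.34e-04), and no gene of the list had a log2 fold change of -1 or less with a limma adjusted p under 0.05. YBX3, a DNA- and RNA-binding protein that also associates with TJP1, was the most abundant per kilobase and did not pass (log2 fold change -0.14, 95% interval -0.34 to 0.063, limma adjusted p = 0.233; with quantile normalization the sign turned, to 0.069). Of 7 epithelial membrane proteins that bind claudins or act beside them, 5 fell (CDH1, ST14, SPINT1, SPINT2 and CD9) and EPCAM did not pass (median -0.49). The 5 that fell were chosen after their values were seen. EPCAM, which binds and stabilises CLDN7 protein, measured 29154, 30245 and 27490.4 in KYSE450 and 31383, 26341 and 27953 in KEAP1null-KYSE450. Its lines overlapped (log2 fold change -0.023, SE 0.10, limma adjusted p = 0.867, 95% interval -0.24 to 0.20), and its sign was positive with quantile normalization (0.18), with every library scaled to the same total (0.00917), with edgeR (0.061), with DESeq2 (0.033) and without library 2 of KYSE450 (0.0088) or of KEAP1null-KYSE450 (0.033).

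Of 17 transcriptional regulators linked to tight junction genes, 16 were tested, 10 fell, 2 rose and 4 did not pass (GRHL2, GRHL3, KLF5 and TWIST1, chosen after their values were seen; median log2 fold change -0.62). Repressors such as ZEB1 and differentiation factors such as KLF4 are pooled in this list. Its counts and median therefore give no direction for tight junction genes. Among those that fell were OVOL1, OVOL2, ELF3, EHF and ESRP2, chosen after their values were seen. ZEB1, a repressor of epithelial genes, measured 20.3, 7.08 and 13.1 in KYSE450 and 423, 455 and 388 in KEAP1null-KYSE450. It was near the limit of the low-value filter in the parent and rose 31.3-fold (log2 fold change 4.97, SE 0.33, limma adjusted p = 1.16e-07). SNAI2, the other that rose, went from 1797, 1825 and 1804 to 3032, 3242 and 3262 and was chosen after its values were seen. TWIST2, like ZEB1 known from epithelial to mesenchymal transition, went from 502, 431 and 506 to 114, 122 and 152 and fell 3.70-fold (log2 fold change -1.89, SE 0.17, limma adjusted p = 2.33e-06). KLF4, a factor of epithelial differentiation, went from 2811, 2419 and 2363 to 833, 722 and 948 and fell 3.03-fold (log2 fold change -1.60, SE 0.12, limma adjusted p = 5.40e-07), and GRHL1, a grainyhead factor, went from 616, 568 and 464 to 203, 209 and 198 and fell 2.70-fold (log2 fold change -1.42, SE 0.15, limma adjusted p = 1.06e-05). ESRP1, an epithelial splicing factor and the most abundant of the list per kilobase in KYSE450, had a small difference (log2 fold change -0.28, SE 0.092, limma adjusted p = 0.0233) that lost its call under 7 of 16 alternatives, among them leaving out KYSE450 library 2 (-0.25) or KEAP1null-KYSE450 library 2 (-0.28) or 3 (-0.23); it was -0.075 with quantile normalization, -0.18 with edgeR and -0.20 with DESeq2 (adjusted p 0.00327 to 0.501 over all alternatives). SNAI1 passed both thresholds as lower but was low in both lines (40.6, 61.7 and 74.6 against 23.1, 14.3 and 40.4) and was chosen after its values were seen.

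**Figure D4:**
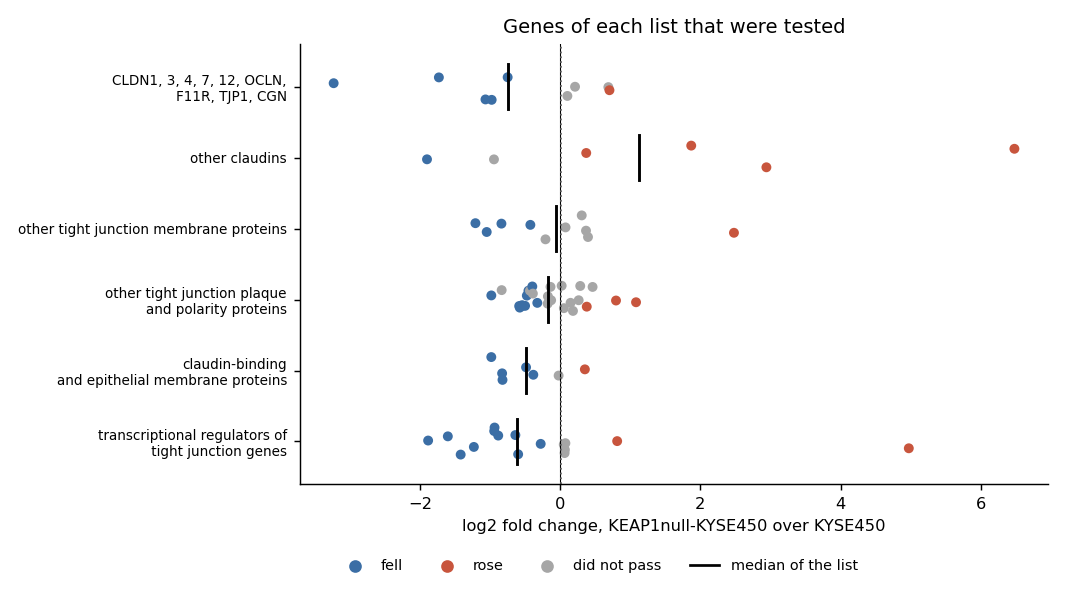
Log2 fold change of KEAP1null-KYSE450 over KYSE450 (horizontal axis) for each gene tested in the 6 lists; each point is 1 gene, blue where it fell, red where it rose and grey where it did not pass, and black bars are medians. The median of the 9 tight junction genes lies at -0.75; that of the other claudins lies at 1.1202 for the 6 shown and at -0.049 without the filter on low values.

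The genes were also set beside their neighbours on the chromosomes. For each gene, the 20 nearest genes tested on each side with a mean of at least 100 were taken; of all 12321 such genes, 31.7% fell and 22.3% rose. Around CGN, 27 of 40 neighbours fell and 3 rose (median log2 fold change -0.59), and around F11R, on the same chromosome arm, 28 of 40 fell and 3 rose (median -0.61). CGN was lower than its neighbours' median by a log2 difference of -1.15, and 2 of the 40 were lower than CGN. F11R differed from its neighbours by -0.45, with 7 of 40 lower than F11R. The part of these stretches in the levels of CGN and F11R was not tested. Around CLDN7 the median was -0.15, where 14 of 40 neighbours fell and 5 rose. CLDN7 differed from that median by -3.09, and 1 of 40 was lower than CLDN7. OCLN (neighbours' median -0.012) and TJP1 (-0.069, 34 neighbours) each had 1 neighbour lower than themselves. CLDN3 and CLDN4, which share most neighbours, lay above 36 and 37 of 40, with a median of -0.11. CLDN1 (0.092) and CLDN12 (0.13) lay within the middle of theirs. The medians with 10 genes on each side were -0.59 for CGN and -0.65 for F11R.

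**Figure D5:**
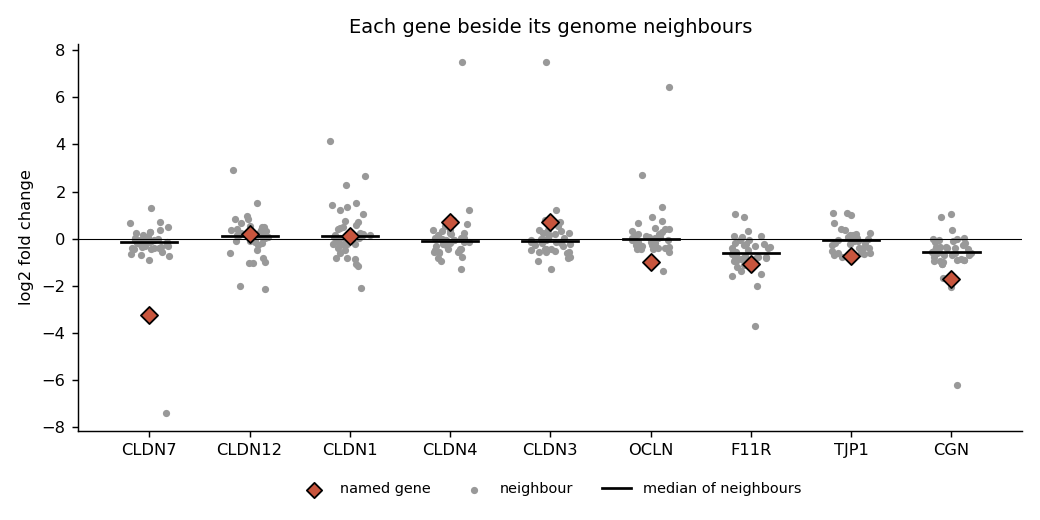
Log2 fold change of KEAP1null-KYSE450 over KYSE450 (vertical axis) of each tight junction gene (red diamond) and of up to 40 tested genes nearest to it on its chromosome (grey points, with their median as a black line). The medians around F11R and CGN lie at -0.61 and -0.59, and those around the other genes between -0.15 and 0.13.

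Promoter sequences from RefSeq (GRCh38.p14) were matched for 8 of the 9 genes, in 13 entries, as several genes have more than 1 start site; F11R has no entry. The 250 bases before each start site were searched on both strands for TGACNNNGC, the core of the antioxidant response element that NRF2 binds with small MAF proteins, for CACCTG, the E-box bound by SNAI and ZEB factors, for GGGCGG, the GC box, and for TATAAA. Over all 34943 promoters of the table, 10.9% held TGACNNNGC in these bases, 17.5% CACCTG, 42.5% GGGCGG and 10.8% TATAAA. Of the 13 entries, 4 held TGACNNNGC, 4 CACCTG, 9 GGGCGG and 0 TATAAA, and the entries of a gene can overlap. Counted by gene, for which the shares above are no background, 4 genes held TGACNNNGC (CLDN3, CLDN7, CLDN12 and CGN), 3 held CACCTG (CLDN7, OCLN and TJP1) and 7 held GGGCGG at 1 or more start sites. The genes with TGACNNNGC included 2 that fell and 2 that did not pass, and CLDN4, the gene that rose, held none. No match of one motif overlapped a match of another, and a match is a description of letters, not a binding site. The bases before the upstream start site of CLDN7 (chr17:7263214-7263463, minus strand) and before that of CGN (chr1:151511137-151511386, plus strand) are shown as those of the genes with the largest differences, and those of CLDN3 (chr7:73770271-73770520, minus strand) as those of a gene with 2 matches that did not pass; capitals mark TGACNNNGC on either strand.
CLDN7: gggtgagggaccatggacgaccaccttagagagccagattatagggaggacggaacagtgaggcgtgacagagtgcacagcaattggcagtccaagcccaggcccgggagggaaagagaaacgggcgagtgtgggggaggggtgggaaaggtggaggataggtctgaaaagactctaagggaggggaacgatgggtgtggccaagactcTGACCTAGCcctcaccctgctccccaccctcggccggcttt
CGN: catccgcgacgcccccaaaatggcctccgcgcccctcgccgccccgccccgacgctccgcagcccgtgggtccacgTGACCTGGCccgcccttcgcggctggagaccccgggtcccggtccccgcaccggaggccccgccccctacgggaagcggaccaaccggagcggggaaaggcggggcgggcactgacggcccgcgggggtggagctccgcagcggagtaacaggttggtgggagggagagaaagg
CLDN3: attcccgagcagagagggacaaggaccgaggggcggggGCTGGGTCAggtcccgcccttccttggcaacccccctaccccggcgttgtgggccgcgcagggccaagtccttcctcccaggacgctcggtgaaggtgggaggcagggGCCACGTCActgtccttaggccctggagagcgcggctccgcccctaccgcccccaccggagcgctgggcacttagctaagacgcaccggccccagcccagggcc

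The E-box letters lay elsewhere. The downstream start site of CLDN7 had 4 matches to CACCTG within 250 bases, at 174, 135, 20 and 9 bases before it, all in annotated exon sequence of the gene. TJP1 had 1, at 88 bases before its most upstream start site, and OCLN had 1 before each of its start sites. Over the 300 bases of a full entry, which run past the start site, CLDN3 had 1 match too, and CLDN3 did not pass the test. A match does not say that a factor binds there. Shown because these are the genes that fell with such a match are 30 bases around a match for CLDN7 (chr17:7262470-7262499, minus strand) and OCLN (chr5:69492502-69492531, plus strand), and the 250 bases for TJP1 (chr15:29969050-29969299, minus strand), with every CACCTG or its reverse complement CAGGTG in capitals.
CLDN7 E-box: tCAGGTGcgcccCACCTGtccgcccgcacc
OCLN E-box: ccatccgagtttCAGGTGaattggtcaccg
TJP1: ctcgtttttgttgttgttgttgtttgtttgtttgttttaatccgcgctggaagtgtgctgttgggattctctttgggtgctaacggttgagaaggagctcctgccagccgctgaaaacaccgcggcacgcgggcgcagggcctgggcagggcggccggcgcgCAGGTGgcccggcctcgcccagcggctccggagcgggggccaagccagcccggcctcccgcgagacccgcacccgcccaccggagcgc

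For each gene past both thresholds, the 3 genes with the most similar profile over the 6 libraries were taken among 12320 genes, by the root mean square distance of log2 values centred on each gene's mean. For CLDN7 they were PDP1 (distance 0.077), a phosphatase of the pyruvate dehydrogenase complex, DAPP1 (distance 0.13), an adaptor of phosphoinositide signalling, and ANXA3 (distance 0.14), an annexin. PDP1, the closest, measured 14681, 15073 and 16884 in KYSE450 and 1709.8, 1675 and 1657 in KEAP1null-KYSE450 (log2 fold change -3.21). For CGN they were OLFML2A (distance 0.11), LAMB3 (distance 0.14), a laminin chain, and DSP (distance 0.17), the desmosomal plaque protein desmoplakin. These 3 had, like CGN, their highest value of each line in library 1; DSP measured 49098, 33562 and 27212 in KYSE450 and 13128, 11061 and 9143 in KEAP1null-KYSE450. For F11R they were HLA-C (distance 0.047), GRB7 (distance 0.048) and THEM6 (distance 0.051), with log2 fold changes of -1.08, -1.12 and -1.08. Genes chosen for this likeness have, by that choice, a log2 fold change close to that of the gene they resemble.

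Reads could be shared between genes with identical sequence, so stretches of 100 bases of each gene's longest transcript were looked up in the transcripts of all other genes on both strands. None was found for CLDN1, CLDN3, CLDN4, TJP1 and CGN. CLDN7 shared 9.32% of its stretches and CLDN12 3.09% with overlapping genes that were at 0 in every library. F11R shared 34.1% with an overlapping gene that was also at 0, and how the authors' counting treated such reads is not given in the sources used here. OCLN shared 6.66% with its pseudogene OCLNP1, which measured between 0.932 and 9.17 normalized counts per library, far below OCLN itself.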

How the data were processed

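RNA was sequenced from KYSE450 and KEAP1null-KYSE450 cells (3 libraries each). The authors aligned quality-filtered reads to hg38 with STAR (2.6.90c) and counted them per gene with featureCounts (1.5.1); FastQC (0.11.5) and cutadapt (1.12) are named in the submitters' processing notes. The deposited matrix holds a signal per gene and library, namely read counts divided by 1 size factor per library. The study's methods give RefSeq as the gene annotation, but the identifiers are Ensembl's, and the strand setting of the counting is not given in the sources used here. In 4 libraries every value was a whole multiple of 1 step (tolerance 0.01), which gave between 53027359 and 61543442 reads; in the other 2 this step was too close to 1 to be accepted. A floor of 3 reads was between 2.77 and 3.21 normalized counts, for counting error only.

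Genes with a mean of at least 10 were fitted with limma 3.58.1 in R 4.3.3 (lmFit, eBayes with trend) on log2 of the value plus 1, two-sided, with Benjamini-Hochberg adjustment over 16701 genes, after the steps were tested on simulated data. Gene positions and exon lengths came from gencode v44. Alternatives were pseudocounts of 0.1 and 10, other filters, library scaling, quantile normalization, no trend, edgeR 4.0.16 and DESeq2 1.42.0 on the recovered reads, and leaving out each library; leaving out library 1 of both lines was added after the data were seen. The members and lists were chosen with earlier results of these data known. Named were KEAP1, NQO1 and GCLM, all 9 genes, from each list its most abundant gene and, where past both thresholds, up to 6 genes a direction whose higher line averaged 100 or more, and the 3 most similar profiles of each gene past both thresholds. A planned comparison of claudin proteins was not run; a search for transcript sequence shared with other genes was added after the data were seen. A marker and a gene of the lists are not reported here.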

Additional observations from a re-analysis of the deposited data

How the results depend on the processing

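CLDN7, CGN, F11R, OCLN and TJP1 fell at an adjusted p under 0.05 in all 16 alternatives. Their log2 fold changes ranged from -3.30 to -3.14 for CLDN7, -2.01 to -1.47 for CGN and -0.86 to -0.60 for TJP1. The number past both thresholds was 3, and between 2 and 4 over the alternatives: F11R dropped out with edgeR, with DESeq2, with quantile normalization, without KYSE450 library 1 and without KEAP1null-KYSE450 library 3, and OCLN came in with quantile normalization, without KYSE450 library 2 and without library 1 of both lines. The number of the 9 genes that rose was 1, but 0 with DESeq2 and with limma without a trend (1 and 2 at an unadjusted p under 0.05), 1 with edgeR, 2 with quantile normalization, between 0 and 2 with each library left out, and 2 without library 1 of both lines (CLDN3 at 0.96). CLDN4 lost its call with DESeq2 (0.70) and without a trend (0.70), and CLDN12 gained one with quantile normalization (0.36). With each library left out, the log2 fold change was 0.52 to 0.94 for CLDN4, 0.40 to 0.93 for CLDN3 and -0.075 to 0.22 for CLDN1. The count of higher genes was 2045, and 875 where a mean of at least 100 was required, since fewer genes were tested. CLDN3 and CLDN8 have no value under that filter.

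Signs turned for genes that did not pass: YBX3 with quantile normalization (0.069), EPCAM with DESeq2 (0.033), edgeR (0.061), quantile normalization (0.18) and the same total per library (0.00917), and KEAP1 with quantile normalization (0.14) and the same total per library (0.016). With each library left out, EPCAM was between -0.093 and 0.033 and KEAP1 between -0.072 and 0.040. The median of the other claudins was -0.049 and that of the other membrane proteins -0.21 without the filter, which adds genes near 0. The other causes were not tested. The planned comparison of claudin proteins was not run, and no replicate block was fitted. No paired analysis was possible because the columns name the cell line and carry no replicate number. Each line is represented by 3 libraries and the edited line by 1 clone, and the count tests used 4 libraries. Levels per kilobase depend on the length chosen, and among the 9 tight junction genes most of all for CLDN12 and OCLN.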
